A study of Mus musculus with 33 samples.

Results

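The genes described here are 34 members of the unfolded protein response and of the protein-folding machinery of the endoplasmic reticulum (ER), measured by RNA-seq in mouse mammary cells, organoids and tumors. The members were taken by their symbols from the 4 deposited tables of the series, 1 table per experiment. All 34 had a row among the 24188 genes of the organoid table and the 22854 genes of the guide RNA table, and 33 had a row among the 26232 genes of the trichostatin A table and of the tumor table. Ddit3 was not analysed here with trichostatin A or in tumors. A filter on low values, a normalized count plus 1 of at least 10 in as many libraries as the smallest group held, left 32 members for testing with trichostatin A, 33 with the guide RNA, all 34 in organoids and 33 in tumors. Derl3 did not pass that filter in the HC11 tables.

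The series holds 33 samples and was designed around Trps1, which encodes a GATA-type zinc finger repressor of transcription, and Cdh1, which encodes the adhesion protein E-cadherin. HC11 cells, a mouse mammary epithelial line, received trichostatin A (TSA), which blocks histone deacetylases, at 300 nM for 24 h, or the solvent DMSO, with 3 libraries each. In a second HC11 experiment a guide RNA targeted Trps1 (sgTrps1) or was scrambled (sgScr), with 1 guide per arm and 2 libraries per guide. Primary mammary organoids were transduced with an adenovirus that carries Cre and harvested after 14 or 28 days, with 2 libraries per genotype and day. Their genotypes were Cdh1F/F;Trps1F/F and Cdh1+/F;Trps1F/F, and Cdh1F/F;Trps1+/+ as the genotype with intact Trps1 (Trps1+/+ organoids below). Tumors came from WAP-cre;Cdh1F/F;Trps1F/F mice (8 tumors of 6 mice) and from WAP-cre;Cdh1F/F;Trps1+/+ mice (3 tumors of 3 mice). WAP-cre acts in milk-secreting cells of the mammary gland, so other cells of a tumor keep intact alleles. The Cdh1F/F alleles are carried by the Trps1+/+ organoids and Trps1+/+ tumors as well, and the Cdh1+/F organoids differ from the Trps1+/+ organoids at both genes. The sources used here give no ages for the animals.

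The unfolded protein response senses unfolded protein in the ER through the membrane proteins Ern1 (IRE1), Eif2ak3 (PERK) and Atf6. Ern1 splices the RNA of the transcription factor Xbp1, Eif2ak3 slows translation and favours translation of the transcription factor Atf4, and Atf6 is cut to release a transcription factor of its own. Their targets include chaperones such as Hspa5 (BiP), the disulfide-forming enzymes of the ER and the machinery of ER-associated degradation. Secretory epithelium, including the lactating mammary gland, carries a large ER and depends on these genes. RNA levels per gene do not measure the splicing of Xbp1, the cutting of Atf6 or the translation of Atf4.

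The promoters of several members carry the ER stress response element (ERSE), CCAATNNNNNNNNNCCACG, which binds NF-Y at its CCAAT end and Atf6 or spliced Xbp1 at its CCACG end. RefSeq promoter windows on GRCm38.p6, from 250 bases before to 50 bases after the start site, were found for 30 of 34 members and searched on both strands. The ERSE stood in 10 of these 30 windows, against 39 of all 32851 promoter windows (0.119%). The shorter element ERSE-II, ATTGGNCCACG, stood in 2 of 30 windows, against 12 of 32851 (0.0365%). Together the ERSE or ERSE-II was found in 12 of 30 member windows (40%) and in 51 of all windows (0.155%). By role, the ERSE was in 6 of 9 windows of chaperones, 2 of 6 of disulfide enzymes, 2 of 7 of degradation genes, and in none of the windows of sensors (2 searched), transcription factors (4 searched) and translocation genes (2 searched). The motif TGACGTG, the core of another element of Xbp1 and Atf6, was in 1 of 30 member windows, that of Hspa5, against 2.01% of all windows. The motif TGATGNAA, the core of the element that Atf4 and CHOP bind together, was in 2 of 30, those of Trib3 and Herpud1, against 3.97%. A match is a run of letters and was not tested for binding.

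The elements are shown for 11 members: 10 that carry main results below, and Syvn1, an ERSE carrier whose level differed little between the organoid genotypes at day 14. Each line runs 5′ to 3′ on the strand of the gene, and capitals mark the ERSE or, in Herpud1, the ERSE-II.
Hspa5 (chr2:34772015-34772053, plus strand): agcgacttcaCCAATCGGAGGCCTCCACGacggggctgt
Hsp90b1 (chr10:86705523-86705666, minus strand): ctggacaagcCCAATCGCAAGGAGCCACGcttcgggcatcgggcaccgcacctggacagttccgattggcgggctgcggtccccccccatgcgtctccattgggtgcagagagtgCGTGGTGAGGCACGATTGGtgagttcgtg
Dnajc3 (chr14:118937817-118937855, plus strand): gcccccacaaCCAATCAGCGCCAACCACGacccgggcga
Creld2 (chr15:88819510-88819548, plus strand): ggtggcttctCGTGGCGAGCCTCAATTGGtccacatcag
Calr (chr8:84847065-84847103, minus strand): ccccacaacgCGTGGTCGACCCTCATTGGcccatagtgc
Canx (chr11:50325790-50325828, minus strand): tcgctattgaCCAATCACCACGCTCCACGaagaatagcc
Pdia6 (chr12:17266481-17266519, plus strand): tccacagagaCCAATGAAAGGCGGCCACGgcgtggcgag
Ero1lb (chr13:12565672-12565710, plus strand): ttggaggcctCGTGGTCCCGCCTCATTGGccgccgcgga
Herpud1 (chr8:94386367-94386397, plus strand): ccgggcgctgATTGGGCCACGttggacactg
Syvn1 (chr19:6046522-6046560, plus strand): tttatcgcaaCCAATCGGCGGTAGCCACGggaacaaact
Derl3 (chr10:75893232-75893270, plus strand): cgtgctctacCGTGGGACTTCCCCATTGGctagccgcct
In Creld2, Calr, Ero1lb and Derl3, and in the element of Hsp90b1 nearer the start site, the ERSE lies in reverse and reads CGTGG first and ATTGG last. The window of Hsp90b1 was the only 1 of 32851 that held 2 copies of the ERSE.

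Depth and labels were checked first. Reads recovered from the deposited values summed to 17809076 to 25614664 per library with TSA or DMSO, 21374526 to 38773075 with guide RNAs, 14858175 to 30341900 for organoids and 18320414 to 24225027 for tumors. Levels are given as deposited, as log2 of the normalized count plus 1, and differences as log2 fold changes ± SE with p-values adjusted over all tested genes (limma, called under 0.05). Trps1 RNA was lower in the Trps1F/F organoids at day 14, with log2 levels of 11.39 and 11.27 in Cdh1F/F;Trps1F/F organoids and 9.50 and 9.98 in Cdh1+/F;Trps1F/F organoids, against 13.59 and 13.51 in Trps1+/+ organoids. It was not lower with the guide, at 13.85 and 13.91 in sgTrps1 cells and 13.79 and 13.89 in sgScr cells, so RNA gives no check of that label. TSA lowered it to 10.97, 10.90 and 10.91, against 14.02, 13.96 and 13.94 with DMSO, and in tumors Trps1 did not pass. Among Trps1F/F organoids at day 14, Cdh1 RNA was not lower with Cdh1F/F, at 13.60 and 13.58, than with Cdh1+/F, at 13.52 and 13.50. In the Trps1+/+ organoids, which are also Cdh1F/F, it was lower, at 13.09 and 13.08. Luminal and basal epithelial markers were present in all experiments. The summed normalized counts of 15 luminal markers were 16025 to 16705 in TSA-treated cells and 15577 to 16308 in DMSO cells, and those of 10 basal markers were 48133 to 49906 with TSA and 104355 to 120367 with DMSO. Nothing in the labels says that libraries of one cell group are separate cultures, so p-values there measure the spread between these libraries, which may be technical. Replicates a and b of the organoids are columns with shared headers, named in column order.

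Levels were compared between members per kilobase of annotated exons. In Trps1+/+ organoids at day 14 the lectin chaperone Calr was highest at 16431 ± 149 normalized counts per kilobase (SD, n = 2), followed by the ER Hsp90 protein Hsp90b1 at 14091 ± 535 and by Hspa5 at 12820 ± 66.7. The oxidase Ero1lb was lowest at 98.7 ± 13.1, below the degradation gene Derl3 at 157 ± 42.4, with libraries from 89.4 to 108 for Ero1lb and from 127 to 187 for Derl3. In TSA-treated HC11 cells the disulfide isomerase P4hb led at 44254 ± 1877 per kilobase (SD, n = 3) and was also highest in DMSO cells at 19573 ± 61.6. Calr followed at 23635 ± 674 with TSA and 9233 ± 213 with DMSO.

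**Figure D1:**
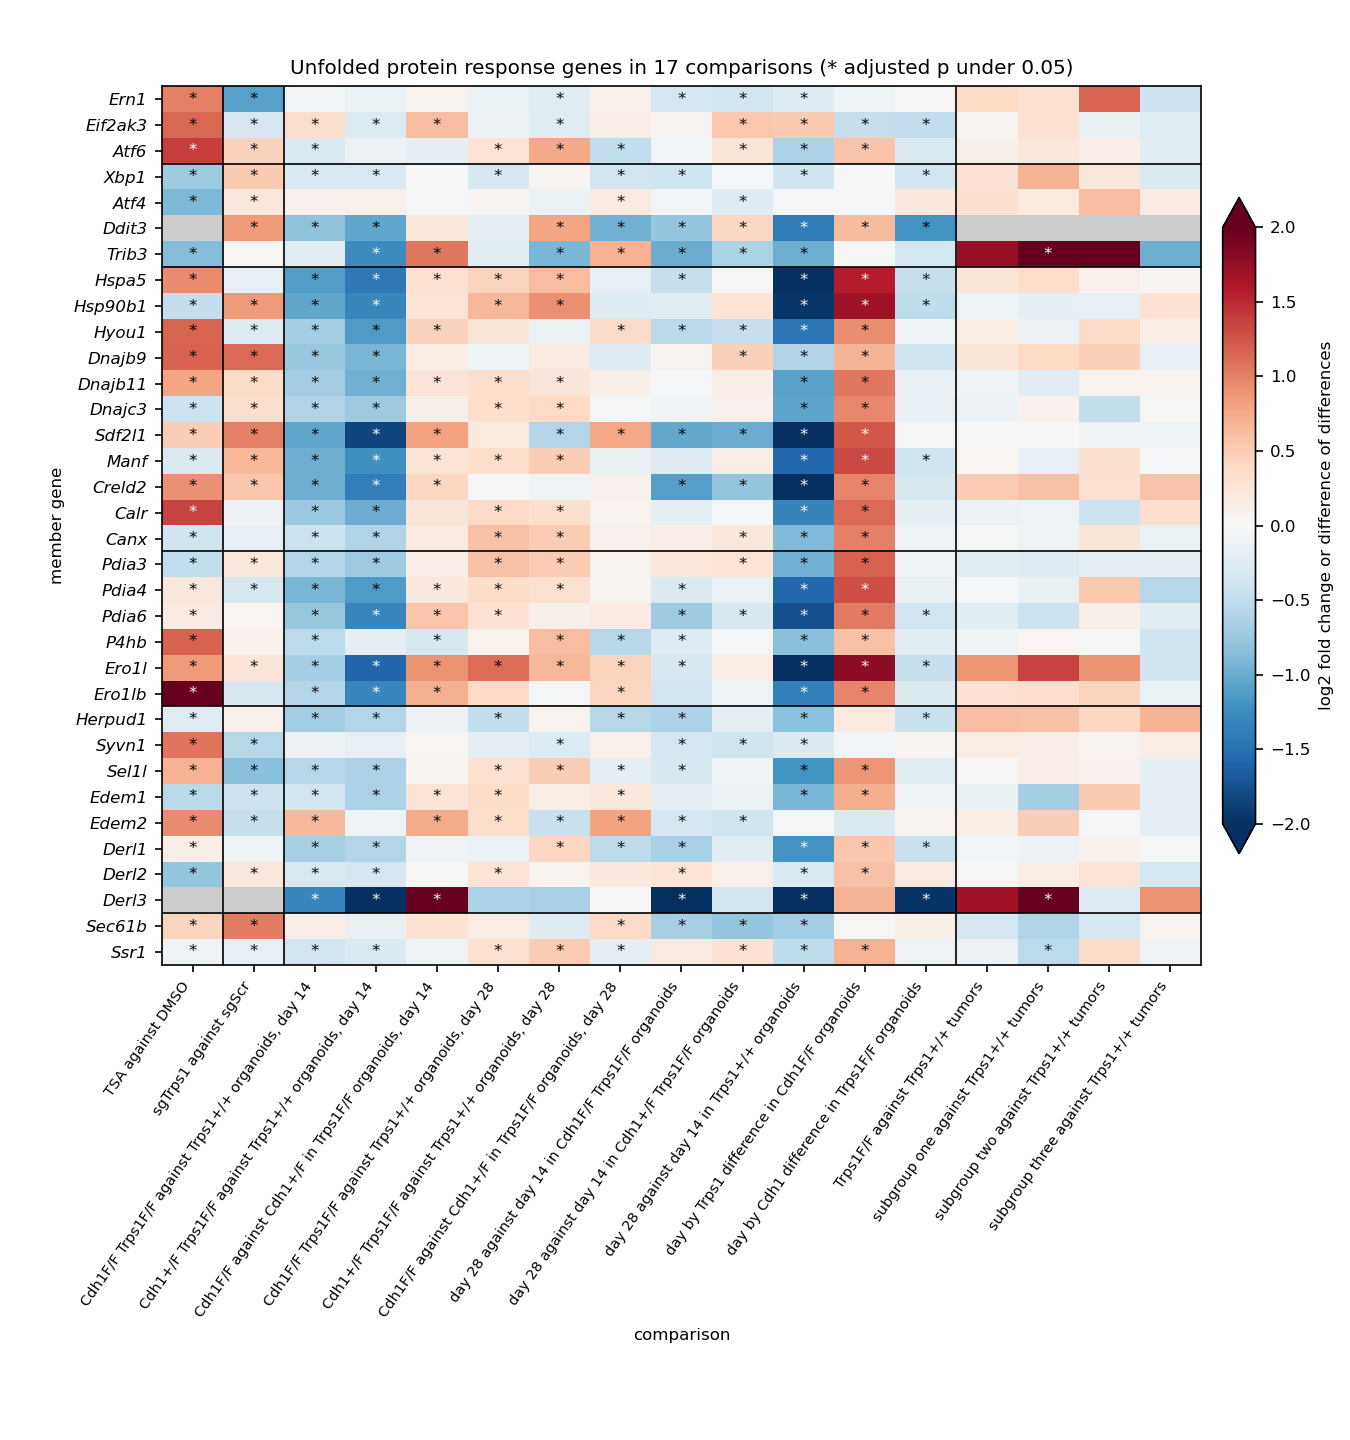
Log2 fold change of 34 members (rows, grouped by role) in 17 comparisons (columns), coloured up to 2 in either direction. Stars mark members called at an adjusted p under 0.05 by limma, and grey cells were not tested. The columns for day 14 organoids against Trps1+/+ and for day 28 against day 14 in Trps1+/+ organoids are lower for most chaperones and disulfide enzymes, the column for the day by Trps1 difference is higher for 24 members, and the column for all tumors has no star.

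The organoids held the broadest pattern. At day 14, chaperones, disulfide enzymes and most degradation genes were lower in both Trps1F/F genotypes than in Trps1+/+ organoids. In Cdh1F/F;Trps1F/F organoids 27 of 34 members fell and 2 rose, with a median log2 fold change of -0.60, against 17.9% of 15861 tested genes lower and 14.5% higher. In Cdh1+/F;Trps1F/F organoids 27 of 34 fell and none rose, with a median of -0.73, against 17.4% of genes lower and 18.9% higher. These comparisons share the Trps1+/+ libraries. All 11 chaperones and cochaperones fell in both genotypes, and the disulfide enzymes fell in 6 of 6 members with Cdh1F/F and in 5 of 6 with Cdh1+/F. Called falls ran from -1.31 (Derl3) to -0.31 (Atf6) with Cdh1F/F and from -3.30 (Derl3) to -0.27 (Eif2ak3) with Cdh1+/F. In bulk samples, fewer cells of a type and less RNA per cell cannot be told apart.

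Hspa5, the main Hsp70 chaperone of the ER, had log2 levels at day 14 of 14.54 and 14.67 in Cdh1F/F;Trps1F/F organoids and 14.31 and 14.29 in Cdh1+/F;Trps1F/F organoids, against 15.73 and 15.72 in Trps1+/+ organoids. Every Trps1F/F library lay more than 1 log2 unit below both Trps1+/+ libraries. The log2 fold change was -1.12 ± 0.10 (SE, adjusted p = 2.56e-06) with Cdh1F/F and -1.43 ± 0.10 (SE, adjusted p = 1.75e-07) with Cdh1+/F. Sdf2l1, a partner of Hspa5 complexes, had 9.21 and 9.13 in Cdh1F/F;Trps1F/F organoids and 8.58 and 8.16 in Cdh1+/F;Trps1F/F organoids, against 9.996 and 10.43 in Trps1+/+ organoids. It fell by 1.04 ± 0.18 (SE, adjusted p = 0.000567) with Cdh1F/F and by 1.84 ± 0.18 (SE, adjusted p = 4.06e-06) with Cdh1+/F. Manf, a small ER-resident factor that binds Hspa5, had 11.24 and 11.43 in Cdh1F/F;Trps1F/F organoids and 11.06 and 11.09 in Cdh1+/F;Trps1F/F organoids, against 12.26 and 12.35 in Trps1+/+ organoids. It fell by 0.97 ± 0.09 (SE, adjusted p = 6.56e-06) with Cdh1F/F and by 1.23 ± 0.09 (SE, adjusted p = 5.18e-07) with Cdh1+/F. For all 3 members the Trps1F/F libraries were below the Trps1+/+ libraries without overlap. With 2 libraries a group this was common. The groups did not overlap for 34 of 34 members with Cdh1F/F and for 33 of 34 with Cdh1+/F. The share of all genes without overlap is not given here.

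Among the disulfide enzymes at day 14, the isomerase Pdia4 had levels of 12.41 and 12.44 in Cdh1F/F;Trps1F/F organoids and 12.21 and 12.21 in Cdh1+/F;Trps1F/F organoids, against 13.32 and 13.37 in Trps1+/+ organoids. It fell by 0.92 ± 0.07 (SE, adjusted p = 1.68e-06) with Cdh1F/F and by 1.13 ± 0.07 (SE, adjusted p = 1.46e-07) with Cdh1+/F. Pdia6, an isomerase that works beside Hspa5, had 12.65 and 12.75 in Cdh1F/F;Trps1F/F organoids and 12.21 and 12.08 in Cdh1+/F;Trps1F/F organoids, against 13.43 and 13.49 in Trps1+/+ organoids. It fell by 0.76 ± 0.08 (SE, adjusted p = 8.9e-06) with Cdh1F/F and by 1.32 ± 0.08 (SE, adjusted p = 4.93e-08) with Cdh1+/F. Ero1l, the oxidase that recharges the isomerases, had 12.25 and 12.51 in Cdh1F/F;Trps1F/F organoids and 11.47 and 11.47 in Cdh1+/F;Trps1F/F organoids, against 13.12 and 12.99 in Trps1+/+ organoids, and both Cdh1+/F libraries were the lowest. It fell by 0.68 ± 0.10 (SE, adjusted p = 0.0002) with Cdh1F/F and by 1.58 ± 0.10 (SE, adjusted p = 1.09e-07) with Cdh1+/F. P4hb, which is also a subunit of the collagen prolyl hydroxylases, fell by 0.52 ± 0.08 (SE, adjusted p = 0.000387) with Cdh1F/F and did not pass with Cdh1+/F (-0.19 ± 0.08, adjusted p = 0.0872).

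Of the 8 degradation genes, 6 fell in each genotype at day 14. Derl3, a Derlin protein of the ER membrane, had levels of 6.95 and 6.97 in Cdh1F/F;Trps1F/F organoids and 5.51 and 4.42 in Cdh1+/F;Trps1F/F organoids, against 7.99 and 8.55 in Trps1+/+ organoids. The 3 genotypes did not overlap. It fell by 1.31 ± 0.32 (SE, adjusted p = 0.00717) with Cdh1F/F and by 3.30 ± 0.32 (SE, adjusted p = 4.94e-06) with Cdh1+/F. Without Trps1+/+ day 14 replicate b the change with Cdh1F/F was -1.03 with an adjusted p of 0.0789. Edem2, which trims mannose from misfolded glycoproteins, had 10.61 and 10.64 in Cdh1F/F;Trps1F/F organoids and 9.91 and 9.87 in Cdh1+/F;Trps1F/F organoids, against 9.94 and 10.02 in Trps1+/+ organoids. It rose by 0.65 ± 0.08 (SE, adjusted p = 3.38e-05) with Cdh1F/F and did not pass with Cdh1+/F (-0.09 ± 0.08, adjusted p = 0.377). The other member that rose was the sensor Eif2ak3, by 0.35 ± 0.09 (SE, adjusted p = 0.0102) with Cdh1F/F. That call ended without Trps1+/+ day 14 replicate a (adjusted p = 0.0517) or without Cdh1F/F;Trps1F/F day 14 replicate 1 (adjusted p = 0.0841). With Cdh1+/F Eif2ak3 fell by 0.27 ± 0.09 (SE, adjusted p = 0.0313). Syvn1, the ubiquitin ligase of the pathway, did not pass with Cdh1F/F (-0.12 ± 0.09, adjusted p = 0.309) or with Cdh1+/F (-0.16 ± 0.09, adjusted p = 0.176).

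Of the 4 transcription factors and stress genes, 2 fell with Cdh1F/F and 3 with Cdh1+/F at day 14. Ddit3, which encodes the death-linked factor CHOP, had 9.41 and 9.58 in Cdh1F/F;Trps1F/F organoids and 9.33 and 9.20 in Cdh1+/F;Trps1F/F organoids, against 10.25 and 10.35 in Trps1+/+ organoids. It fell by 0.81 ± 0.11 (SE, adjusted p = 8.18e-05) with Cdh1F/F and by 1.04 ± 0.11 (SE, adjusted p = 7.47e-06) with Cdh1+/F, with no overlap. Xbp1 had 13.27 and 13.18 in Cdh1F/F;Trps1F/F organoids and 13.19 and 13.26 in Cdh1+/F;Trps1F/F organoids, against 13.53 and 13.53 in Trps1+/+ organoids. It fell by 0.31 ± 0.07 (SE, adjusted p = 0.00554) with Cdh1F/F and by 0.31 ± 0.07 (SE, adjusted p = 0.00479) with Cdh1+/F, and the call with Cdh1F/F ended without Cdh1F/F;Trps1F/F day 14 replicate 2 (adjusted p = 0.0623). Atf4 had 13.20 and 13.24 in Cdh1F/F;Trps1F/F organoids and 13.19 and 13.29 in Cdh1+/F;Trps1F/F organoids, against 13.10 and 13.17 in Trps1+/+ organoids, with the Trps1F/F libraries just above the Trps1+/+ libraries. Its differences did not pass, with 95% intervals of -0.08 to 0.24 for Cdh1F/F and -0.05 to 0.26 for Cdh1+/F. Trib3, a pseudokinase that Atf4 and CHOP induce, had 10.73 and 10.71 in Cdh1F/F;Trps1F/F organoids and 9.83 and 9.49 in Cdh1+/F;Trps1F/F organoids, against 10.84 and 11.03 in Trps1+/+ organoids. It fell by 1.27 ± 0.12 (SE, adjusted p = 4.44e-06) with Cdh1+/F and did not pass with Cdh1F/F (-0.22 ± 0.12, adjusted p = 0.201).

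**Figure D2:**
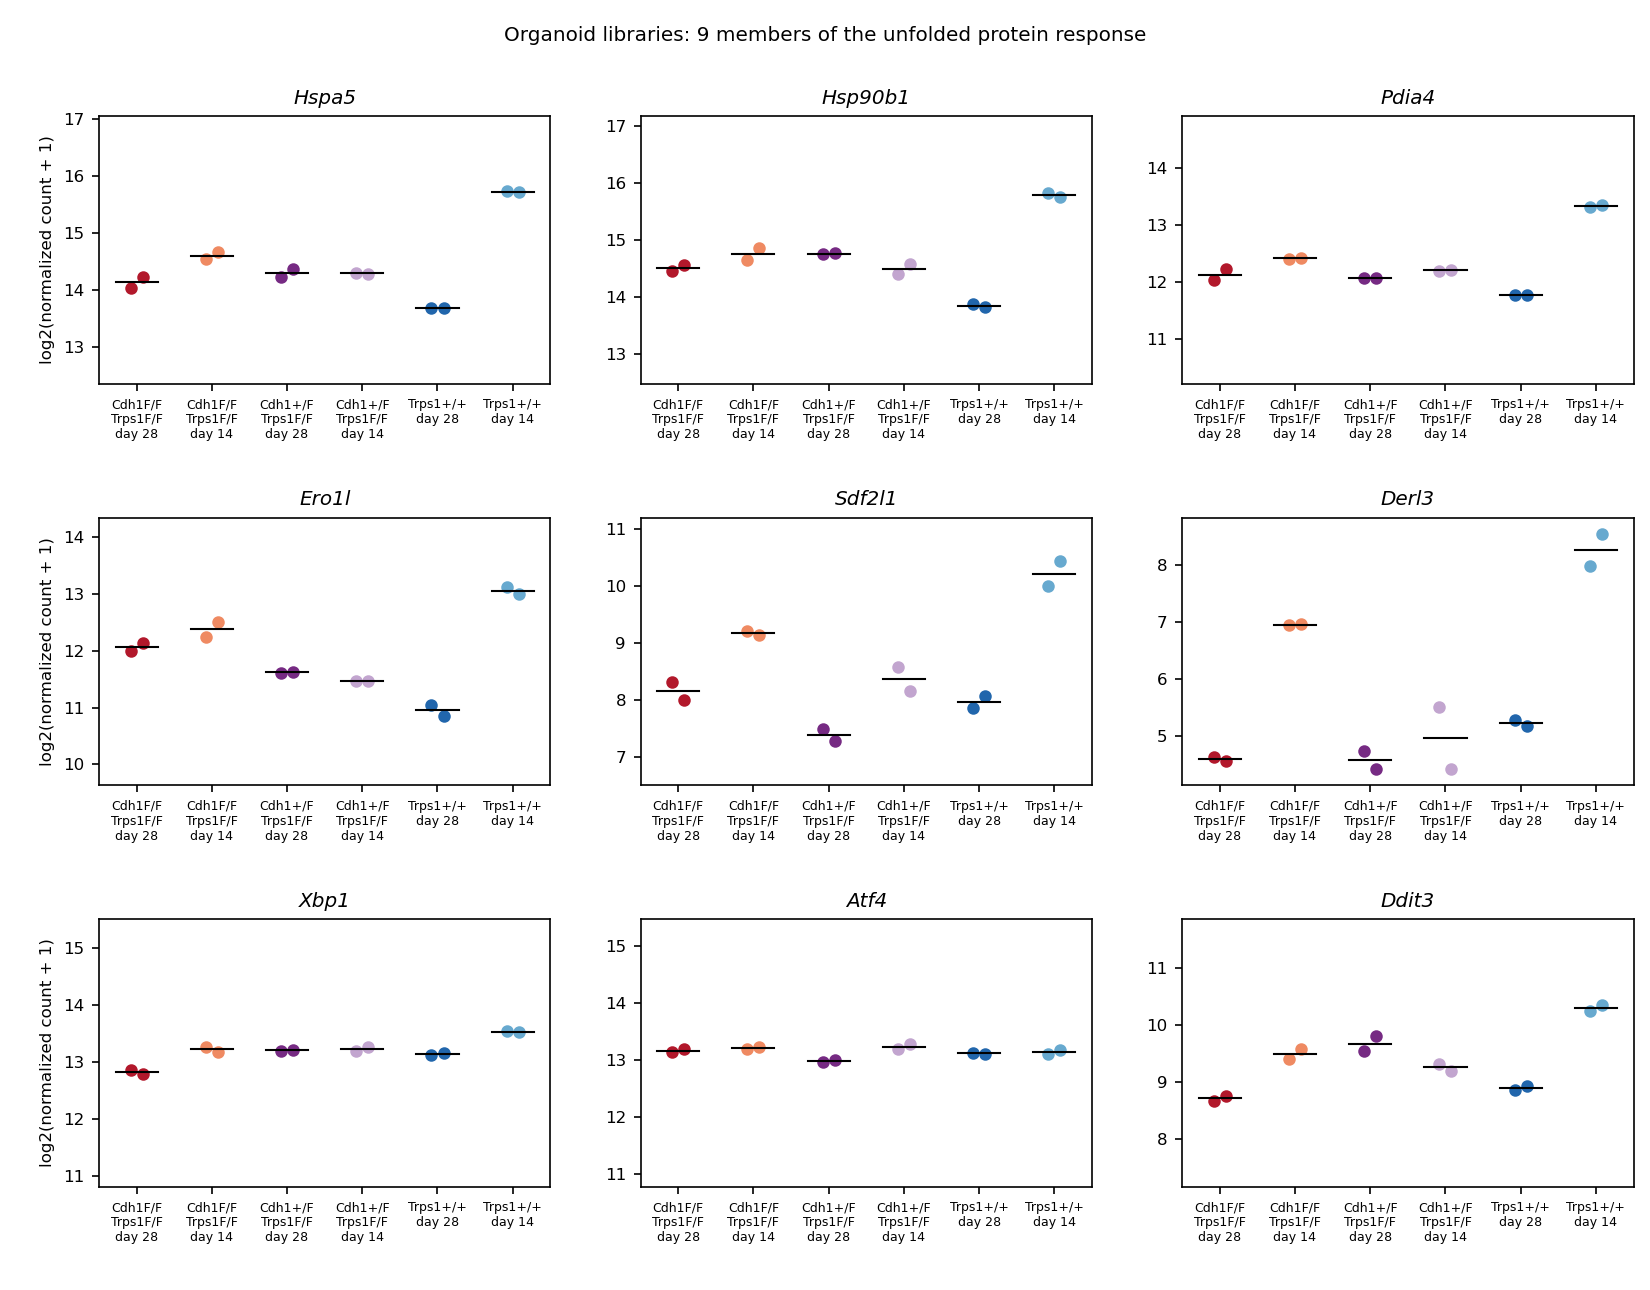
Log2(normalized count + 1) of 9 members in the 12 organoid libraries, 1 point per library. Columns run by genotype, from Cdh1F/F;Trps1F/F through Cdh1+/F;Trps1F/F to Trps1+/+, with day 28 left of day 14 within each genotype. Every panel spans the same number of log2 units. Both Trps1+/+ day 14 libraries lie above all 10 others for Hspa5 (15.72 and 15.73), Hsp90b1, Pdia4, Ero1l, Sdf2l1, Derl3, Xbp1 and Ddit3, and not for Atf4.

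The Trps1F/F genotypes differed from each other at day 14. In Cdh1F/F against Cdh1+/F Trps1F/F organoids 15 of 34 members rose and 1 fell, with a median of 0.24, against 19% of genes higher and 21.6% lower. The members above with the largest differences were Derl3 (1.99 ± 0.32, adjusted p = 0.000262), Trib3 (1.06 ± 0.12, adjusted p = 1.6e-05), Ero1l (0.90 ± 0.10, adjusted p = 9.58e-06), Sdf2l1 (0.80 ± 0.18, adjusted p = 0.0026) and Edem2 (0.74 ± 0.08, adjusted p = 5.42e-06), all higher with Cdh1F/F. Xbp1 (0.00 ± 0.07, adjusted p = 0.989), Atf4 (-0.02 ± 0.07, adjusted p = 0.828) and Ddit3 (0.23 ± 0.11, adjusted p = 0.106) did not pass. The member that fell was P4hb (-0.32 ± 0.08, adjusted p = 0.00695). The 15 rises became 9 without Cdh1F/F;Trps1F/F day 14 replicate 2, with no fall, and 9 without Cdh1+/F day 14 replicate b. Hspa5 passed at 0.31 ± 0.10 (SE, adjusted p = 0.021) and lost the call without that Cdh1F/F library (adjusted p = 0.157) or without either Cdh1+/F library (0.0665 and 0.09).

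Cell type markers moved with these groups. At day 14 the summed normalized counts of 16 fibroblast markers were 76166 to 76717 in Cdh1F/F;Trps1F/F organoids and 869885 to 961905 in Cdh1+/F;Trps1F/F organoids, against 187954 to 193823 in Trps1+/+ organoids. Fibroblast markers thus fell in 14 of 16 genes with Cdh1F/F (median -1.49), against 17.9% of all genes. With Cdh1+/F they rose in 14 of 16 (median 2.75), against 18.9% of all genes. The 14 macrophage markers summed to 8516 to 8880 with Cdh1F/F and 27738 to 28514 with Cdh1+/F, against 15915 to 15920 in Trps1+/+ organoids. The 12 milk genes summed to 16373 to 16699 with Cdh1F/F and 48965 to 58308 with Cdh1+/F, against 26030 to 26959 in Trps1+/+ organoids. The 15 luminal markers summed to 100532 to 103368 with Cdh1F/F and 72656 to 76274 with Cdh1+/F, against 60696 to 71858. Of plasma and B cell markers, which mark cells with a large ER, 9 were measured. They summed to 562 to 671 with Cdh1F/F and 170 to 171 with Cdh1+/F, against 348 to 385 in Trps1+/+ organoids, where 4 of them were at 0. The part of cell composition in the member results was not tested.

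At day 28 many members were higher, not lower, in the Trps1F/F organoids. In Cdh1F/F;Trps1F/F organoids 17 of 34 members rose and 2 fell, with a median of 0.27, against 19.9% of genes higher and 23.4% lower. In Cdh1+/F;Trps1F/F organoids 16 rose and 6 fell, with a median of 0.16, against 28.6% higher and 24.7% lower. The 6 falls became 2 without Trps1+/+ day 28 replicate b and 3 without Cdh1+/F day 28 replicate b, and the split was 15 higher and 9 lower with quantile normalization. Hspa5 had 14.05 and 14.23 in Cdh1F/F;Trps1F/F organoids and 14.22 and 14.37 in Cdh1+/F;Trps1F/F organoids, against 13.68 and 13.69 in Trps1+/+ organoids. All 4 Trps1F/F libraries were above both Trps1+/+ libraries. Hspa5 rose by 0.45 ± 0.10 (SE, adjusted p = 0.00206) with Cdh1F/F and by 0.61 ± 0.10 (SE, adjusted p = 0.000143) with Cdh1+/F.

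Hsp90b1, the Hsp90 chaperone of the ER, had day 28 levels of 14.45 and 14.57 in Cdh1F/F;Trps1F/F organoids and 14.75 and 14.77 in Cdh1+/F;Trps1F/F organoids, against 13.88 and 13.82 in Trps1+/+ organoids. It rose by 0.66 ± 0.10 (SE, adjusted p = 0.000222) with Cdh1F/F and by 0.91 ± 0.10 (SE, adjusted p = 9.09e-06) with Cdh1+/F. Canx, the membrane-bound lectin chaperone, had 13.79 and 13.88 in Cdh1F/F;Trps1F/F organoids, against 13.32 and 13.17 in Trps1+/+ organoids, and rose by 0.59 ± 0.08 (SE, adjusted p = 0.000114). Pdia3, the isomerase that works with Canx and Calr, had 14.36 and 14.51 in Cdh1F/F;Trps1F/F organoids, against 13.91 and 13.78 in Trps1+/+ organoids, and rose by 0.59 ± 0.10 (SE, adjusted p = 0.000352). Ero1l had 11.98 and 12.13 in Cdh1F/F;Trps1F/F organoids, against 11.05 and 10.85 in Trps1+/+ organoids, and rose by 1.11 ± 0.10 (SE, adjusted p = 2.36e-06), the largest change of a member in that comparison. The groups of these 4 members did not overlap, which held for 28 of 34 members with Cdh1F/F and 31 of 34 with Cdh1+/F. The share of all genes without overlap at day 28 is not given here, so these counts cannot be read as particular to the members.

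Of the transcription factors and stress genes at day 28, Xbp1 fell with Cdh1F/F. Its levels were 12.86 and 12.78 in Cdh1F/F;Trps1F/F organoids and 13.19 and 13.21 in Cdh1+/F;Trps1F/F organoids, against 13.11 and 13.16 in Trps1+/+ organoids, and it fell by 0.32 ± 0.07 (SE, adjusted p = 0.00352) with Cdh1F/F. Herpud1, a scaffold of the degradation complex, was the other member that fell with Cdh1F/F (-0.50 ± 0.09, adjusted p = 0.000466). Atf4 had 13.14 and 13.20 in Cdh1F/F;Trps1F/F organoids and 12.97 and 13.004 in Cdh1+/F;Trps1F/F organoids, against 13.13 and 13.11 in Trps1+/+ organoids, and did not pass with Cdh1F/F (0.05 ± 0.07, adjusted p = 0.614) or Cdh1+/F (-0.14 ± 0.07, adjusted p = 0.135). Ddit3 had 8.68 and 8.76 in Cdh1F/F;Trps1F/F organoids and 9.55 and 9.81 in Cdh1+/F;Trps1F/F organoids, against 8.86 and 8.93 in Trps1+/+ organoids. It rose by 0.78 ± 0.11 (SE, adjusted p = 4.68e-05) with Cdh1+/F and did not pass with Cdh1F/F (-0.18 ± 0.11, adjusted p = 0.184). Trib3 had 9.70 and 9.76 in Cdh1F/F;Trps1F/F organoids and 8.89 and 9.17 in Cdh1+/F;Trps1F/F organoids, against 10.003 and 9.90 in Trps1+/+ organoids, and fell by 0.92 ± 0.12 (SE, adjusted p = 3.9e-05) with Cdh1+/F. The sensor Atf6 was at 11.81 and 11.72 in Cdh1+/F;Trps1F/F organoids, against 10.96 and 11.06 in Trps1+/+ organoids, and rose by 0.76 ± 0.08 (SE, adjusted p = 4.39e-06).

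Between the Trps1F/F genotypes at day 28, 9 of 34 members rose and 8 fell with Cdh1F/F against Cdh1+/F, with a median of 0.08, against 27.7% of genes higher and 29% lower. With libraries shifted to a common median the split was 11 higher and 6 lower. Edem2 was at 10.30 and 10.29 with Cdh1F/F and 9.47 and 9.51 with Cdh1+/F, and rose by 0.81 ± 0.08 (SE, adjusted p = 1.08e-06). Sdf2l1 was at 8.30 and 7.999 with Cdh1F/F and 7.48 and 7.27 with Cdh1+/F, and rose by 0.78 ± 0.18 (SE, adjusted p = 0.00204). P4hb was at 13.88 and 13.78 with Cdh1F/F and 14.43 and 14.33 with Cdh1+/F, and fell by 0.55 ± 0.08 (SE, adjusted p = 8.77e-05). These genotypes did not overlap, which held for 24 of 34 members, and the share of all genes without overlap is not given here. Of the members whose levels stand above, Ddit3 fell by 0.96 ± 0.11 (SE, adjusted p = 4.91e-06), Xbp1 fell by 0.38 ± 0.07 (SE, adjusted p = 0.000613) and Hspa5 did not pass (-0.16 ± 0.10, adjusted p = 0.167). Atf4 passed at 0.18 ± 0.07 (SE, adjusted p = 0.0445) and lost the call without each of the 4 libraries compared (adjusted p = 0.0627 to 0.171), without the filter (0.0609) and with only those groups in the fit (0.113). At day 28 the fibroblast markers summed to 54428 to 63464 with Cdh1F/F and 586958 to 692805 with Cdh1+/F, against 134488 to 152779 in Trps1+/+ organoids.

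Between days, the largest count of calls was in the Trps1+/+ organoids. There 31 of 34 members fell at day 28 against day 14 and 1 rose, with a median of -1.02, against 14.7% of genes lower and 11.1% higher. All 11 chaperones, all 6 disulfide enzymes, 7 of 8 degradation genes, 3 of 4 transcription factors and stress genes and both translocation genes fell. Hspa5 was at 13.68 and 13.69 at day 28 and 15.73 and 15.72 at day 14 in Trps1+/+ organoids, and fell by 2.04 ± 0.10 (SE, adjusted p = 3.67e-08). Ero1l was at 11.05 and 10.85 at day 28 and 13.12 and 12.99 at day 14, and fell by 2.10 ± 0.10 (SE, adjusted p = 3.67e-08). Pdia6 was at 11.69 and 11.73 at day 28 and 13.43 and 13.49 at day 14, and fell by 1.75 ± 0.08 (SE, adjusted p = 3.45e-08). The main chaperone, the main oxidase and the isomerase were thus each lower at day 28 by far more than the spread of their libraries. Sdf2l1 was at 7.85 and 8.06 at day 28 and 9.996 and 10.43 at day 14, and fell by 2.25 ± 0.18 (SE, adjusted p = 2e-06). Derl3 was at 5.28 and 5.18 at day 28 and 7.99 and 8.55 at day 14, and fell by 3.04 ± 0.32 (SE, adjusted p = 2.54e-05). Creld2, an ER protein that stress induces, fell by 2.08 ± 0.13, Hsp90b1 by 1.94 ± 0.10 and Calr by 1.33 ± 0.10. Among the cochaperones Dnajb11 fell by 1.07 ± 0.07, Dnajc3 by 1.05 ± 0.08 and Dnajb9 by 0.60 ± 0.15, and Hyou1 by 1.47 ± 0.10. In the degradation pathway Edem1 fell by 0.92 ± 0.08 and Derl2 by 0.31 ± 0.08, and Sel1l and Derl1 fell too. Ddit3 fell by 1.40 ± 0.11 and Xbp1 by 0.39 ± 0.07. Eif2ak3 was the member that rose (0.52 ± 0.09, adjusted p = 0.00124), and Atf4 (-0.02 ± 0.07, adjusted p = 0.896) and Edem2 (-0.04 ± 0.08, adjusted p = 0.753) did not pass.

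In the same Trps1+/+ organoids, 10 of 16 fibroblast markers and 12 of 14 macrophage markers fell at day 28 against day 14, with medians of -0.85 and -1.35, and 5 of 11 tested milk genes fell (median -1.29). Of all genes 14.7% fell. Milk genes summed to 8945 to 13147 at day 28 and 26030 to 26959 at day 14. The luminal markers summed to 63397 to 68316 at day 28 and 60696 to 71858 at day 14. The part of these cell types in the fall was not tested.

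Over the same days, 19 of 34 members fell and 1 rose in Cdh1F/F;Trps1F/F organoids, with a median of -0.32, against 20.6% of genes lower and 14.8% higher. The rise was Derl2 (0.28 ± 0.08, adjusted p = 0.0236), a call that ended without Cdh1F/F;Trps1F/F day 14 replicate 1 (adjusted p = 0.168) or day 28 replicate 2 (0.148). In Cdh1+/F;Trps1F/F organoids 10 fell and 7 rose, with a median of -0.05, against 20.3% lower and 20.5% higher. The 7 rises became 3 without Cdh1+/F day 14 replicate a or replicate b or day 28 replicate a, and 2 without day 28 replicate b. Hspa5 was at 14.05 and 14.23 at day 28 and 14.54 and 14.67 at day 14 with Cdh1F/F, and fell by 0.47 ± 0.10 (SE, adjusted p = 0.00285). With Cdh1+/F it was at 14.22 and 14.37 at day 28 and 14.31 and 14.29 at day 14 and did not pass, with a 95% interval of -0.21 to 0.21. Creld2 and Sdf2l1 fell in both genotypes. Creld2 was at 9.003 and 8.84 at day 28 and 9.96 and 10.08 at day 14 with Cdh1F/F (-1.10 ± 0.13, adjusted p = 6.82e-05). With Cdh1+/F it was at 8.79 and 8.87 at day 28 and 9.81 and 9.41 at day 14 (-0.78 ± 0.13, adjusted p = 0.000589). Sdf2l1 fell by 1.02 ± 0.18 with Cdh1F/F and by 1.00 ± 0.18 with Cdh1+/F.

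Derl3 and Pdia6 fell with Cdh1F/F. Derl3 was at 4.63 and 4.57 at day 28 and 6.95 and 6.97 at day 14 there, and fell by 2.36 ± 0.32 (SE, adjusted p = 0.000214). With Cdh1+/F it was at 4.73 and 4.42 at day 28 and 5.51 and 4.42 at day 14 and did not pass (-0.39 ± 0.32, adjusted p = 0.351). Pdia6 was at 12.05 and 11.93 at day 28 and 12.65 and 12.75 at day 14 with Cdh1F/F, and fell by 0.71 ± 0.08 (SE, adjusted p = 3.86e-05). Sec61b, a small subunit of the translocation channel, was at 8.76 and 8.74 at day 28 and 9.74 and 9.32 at day 14 with Cdh1+/F, and fell by 0.78 ± 0.13 (SE, adjusted p = 0.000553). With Cdh1F/F it fell by 0.66 ± 0.13. Eif2ak3 was at 11.15 and 11.32 at day 28 and 10.68 and 10.69 at day 14 with Cdh1+/F, and rose by 0.55 ± 0.09 (SE, adjusted p = 0.000644). Among the transcription factors, Trib3 fell with Cdh1F/F (-0.99 ± 0.12, adjusted p = 0.000108), as did Ddit3 (-0.78 ± 0.11, adjusted p = 0.000219) and Xbp1 (-0.40 ± 0.07, adjusted p = 0.00139). With Cdh1+/F Ddit3 rose (0.42 ± 0.11, adjusted p = 0.00816) and Atf4 fell (-0.26 ± 0.07, adjusted p = 0.0139). The Ddit3 call ended without Cdh1+/F day 14 replicate b (adjusted p = 0.0594) or day 28 replicate b (0.0942). The Atf4 call ended without Cdh1+/F day 14 replicate b (0.0914) or day 28 replicate a (0.0722).

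Markers moved over these days too. In Cdh1F/F;Trps1F/F organoids 13 of 16 fibroblast markers, 10 of 14 macrophage markers, 11 of 12 skeletal muscle markers and 4 of 11 milk genes fell at day 28 against day 14, with medians of -1.24, -1.22, -1.66 and -0.40, while luminal markers had a median of -0.02. Of all genes 20.6% fell there. In Cdh1+/F;Trps1F/F organoids 8 of 15 luminal markers, 12 of 14 macrophage markers and 5 of 11 milk genes fell, with medians of -0.42, -1.86 and -0.81. There 11 of 12 skeletal muscle and 9 of 10 adipocyte markers rose, with medians of 1.63 and 2.18. Of all genes 20.3% fell and 20.5% rose in that genotype. The part of these cell types in the member values was not tested.

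The difference of the genotype effects between days was tested itself, as the fold change of Cdh1F/F;Trps1F/F against Trps1+/+ organoids at day 28 minus that at day 14. It was positive and passed for 24 of 34 members and negative for 1, with a median of 0.71, against 8.22% of genes positive and 9.72% negative. This difference, the day 14 comparisons with Trps1+/+ organoids and the day comparison in Trps1+/+ organoids share the Trps1+/+ day 14 libraries. They are not separate evidence. All 11 chaperones and all 6 disulfide enzymes passed, as did 4 of 8 degradation genes. Of these, Dnajb9 lost the call with libraries shifted to a common median, with quantile normalization and without the filter. The difference was 1.79 ± 0.14 (SE, adjusted p = 5.61e-05) for Ero1l, 1.70 ± 0.15 (SE, adjusted p = 7.61e-05) for Hsp90b1, 1.57 ± 0.13 (SE, adjusted p = 7.61e-05) for Hspa5 and 1.28 ± 0.10 (SE, adjusted p = 6.92e-05) for Pdia4. At day 28 Pdia4 was at 12.04 and 12.23 in Cdh1F/F;Trps1F/F organoids, against 11.77 and 11.77 in Trps1+/+ organoids, and at day 14 Hsp90b1 was at 14.65 and 14.86 in Cdh1F/F;Trps1F/F organoids, against 15.83 and 15.75 in Trps1+/+ organoids. Ddit3 passed at 0.63 ± 0.15 (SE, adjusted p = 0.0145), a call that ended without Cdh1F/F;Trps1F/F day 14 replicate 1 (adjusted p = 0.0794). Xbp1 (-0.01 ± 0.10, adjusted p = 0.967) and Atf4 (-0.03 ± 0.10, adjusted p = 0.863) did not pass. The negative member was Eif2ak3 (-0.46 ± 0.13, adjusted p = 0.0274). That call ended without Trps1+/+ day 14 replicate a (adjusted p = 0.0856) or day 28 replicate b (0.0988), without Cdh1F/F;Trps1F/F day 14 replicate 1 (0.11) or replicate 2 (0.0588), and when Cdh1F/F;Trps1F/F day 28 replicate 1 was left out (0.0715).

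The matching difference between Cdh1F/F and Cdh1+/F Trps1F/F organoids was negative and passed for 11 of 34 members and positive for none, with a median of -0.23, against 11.7% of genes negative and 7.43% positive. Ddit3 had the smallest p, with -1.19 ± 0.15 (SE, adjusted p = 0.000178), and Derl3 the largest size, with -1.97 ± 0.45 (SE, adjusted p = 0.00892). Hsp90b1 had -0.51 ± 0.15 (SE, adjusted p = 0.027), Eif2ak3 -0.49 ± 0.13 (SE, adjusted p = 0.0178), Hspa5 -0.47 ± 0.13 (SE, adjusted p = 0.0289) and Xbp1 -0.38 ± 0.10 (SE, adjusted p = 0.0209). Atf4 did not pass (0.21 ± 0.10, adjusted p = 0.188). The count of 11 rested on single libraries. It was 5 without Cdh1+/F day 14 replicate a or replicate b, 7 and 4 without Cdh1F/F day 14 replicate 1 and replicate 2, 4 and 3 without Cdh1+/F day 28 replicate a and replicate b, and 6 without Cdh1F/F day 28 replicate 1.

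Both Trps1+/+ day 14 libraries lay above all 10 other organoid libraries for 27 of 34 members, against 5.71% of the 15861 genes tested, 906 in all. This description was chosen after the values were seen. The 7 members that did not were Eif2ak3, Atf6, Atf4, Edem2, Derl2, Sec61b and Ssr1. Ern1 and Syvn1 were just inside, with Syvn1 at 10.99 in the lower Trps1+/+ day 14 library and in the highest of the others. Group means of the 6 organoid groups spanned 3.69 log2 units for Derl3, 2.84 for Sdf2l1, 2.17 for Creld2 and 2.04 for Hspa5, with a median of 1.17 over the members, and 0.26 for Atf4, 0.34 for Derl2 and 0.49 for Ern1.

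Members with an ERSE or ERSE-II and those without are given side by side as a description. At day 28 against day 14 in Trps1+/+ organoids, 12 of 12 members with an element fell, with a median of -1.35, and 15 of 18 without one fell, with a median of -0.76, against 14.7% of all genes. In Cdh1F/F;Trps1F/F against Trps1+/+ organoids at day 14, 11 of 12 with an element fell (median -0.72) and 12 of 18 without (median -0.37), against 17.9% of genes. In Cdh1+/F;Trps1F/F against Trps1+/+ organoids at day 14 the counts were 11 of 12 (median -1.14) and 13 of 18 (median -0.48), against 17.4% of genes. This order did not hold in every comparison. For Cdh1F/F against Cdh1+/F Trps1F/F organoids at day 28, 1 of 12 with an element rose and 1 fell (median 0.08). Without one, 7 of 18 rose and 5 fell (median 0.11), against 27.7% of genes higher and 29% lower. With the Trps1 guide RNA in HC11 cells, 4 of 11 with an element rose and 1 fell (median 0.04). There 9 of 18 without one rose and 7 fell (median 0.16), against 34.6% of genes higher and 32.4% lower. At day 28 against day 14 in Cdh1+/F;Trps1F/F organoids the medians were -0.06 with an element and -0.05 without. Syvn1, whose ERSE is printed above, had -0.12 with Cdh1F/F and -0.16 with Cdh1+/F against Trps1+/+ organoids at day 14.

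Other genes of ER protein handling, outside the 34 members, were counted from lists by function. At day 28 against day 14 in Trps1+/+ organoids, 13 of 18 genes of N-glycosylation fell and none rose, led by the oligosaccharyltransferase subunit Magt1 (-1.18) and the folding sensor Uggt1 (-0.72). Likewise 11 of 21 translocon and signal peptidase genes fell (Sec61g -0.88, Spcs3 -0.75), 13 of 21 other folding enzymes (the prolyl isomerase Ppic -1.20), 8 of 12 collagen folding genes (the prolyl hydroxylase subunit P4ha2 -1.84) and 10 of 23 genes of COPII vesicles (the cargo receptor subunit Mcfd2 -1.29), with none of these rising. Of 34 integrated stress response genes 17 fell and 1 rose, and the cystine carrier Slc7a11 fell by 2.13. Of 21 other degradation genes 1 fell (Vimp -0.39) and of 17 other regulators of the response 3 fell, while of 20 cytosolic heat shock genes 4 rose and 1 fell. Of all tested genes 14.7% fell and 11.1% rose, with a median of 0.01.

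For Cdh1F/F;Trps1F/F against Trps1+/+ organoids at day 14 the same lists gave 9 of 18 lower for N-glycosylation, 8 of 21 for the translocon, 9 of 21 lower and 2 higher for other folding enzymes, 10 of 12 lower for collagen folding, 11 of 23 lower for COPII vesicles and 12 of 34 lower and 2 higher for the integrated stress response. The hydroxylases Plod2 (-1.20) and P4ha2 (-1.42) and the export factor Mia3 (-1.02) were among the genes with the smallest p, and Atf3, a stress-induced transcription factor, rose by 1.21. Other degradation genes had 1 lower and 2 higher of 21, and cytosolic heat shock 2 lower and 2 higher of 20. Of all genes 17.9% were lower and 14.5% higher at day 14. At day 28 N-glycosylation had 5 of 18 higher and 1 lower, the translocon 8 of 21 higher, and collagen folding 8 of 12 lower, with Plod1 at -1.05. Of all genes 19.9% were higher and 23.4% lower at day 28, so the N-glycosylation count is near that share. In Cdh1+/F;Trps1F/F organoids collagen folding genes went the other way, with 6 of 12 higher and 2 lower at day 14 and 10 of 12 higher and 1 lower at day 28. The shares of all genes were 18.9% higher and 17.4% lower at day 14 and 28.6% higher and 24.7% lower at day 28.

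In HC11 cells TSA changed every member that could be tested. Of 32 members 20 rose and 12 fell, with a median of 0.47, against 43.6% of 13035 tested genes higher and 41.6% lower, so a call by itself is common there. All 3 sensors rose and all 3 transcription factors and stress genes tested fell. Atf6 was at 11.60, 11.63 and 11.68 with TSA and 10.28, 10.23 and 10.24 with DMSO, and rose by 1.39 ± 0.04 (SE, adjusted p = 1.66e-11). Eif2ak3 rose by 1.15 ± 0.04 and Ern1 by 1.01 ± 0.05. Atf4 was at 11.80, 11.79 and 11.81 with TSA and 12.69, 12.70 and 12.72 with DMSO, and fell by 0.90 ± 0.03 (SE, adjusted p = 1.46e-10). Xbp1 was at 9.41, 9.37 and 9.56 with TSA and 10.30, 10.08 and 10.09 with DMSO, and fell by 0.71 ± 0.07 (SE, adjusted p = 1.32e-06). Trib3 fell by 0.86 ± 0.06. The TSA and DMSO libraries of these members did not overlap, which held for 31 of 32 members. The share of all genes without overlap with TSA is not given here, so this count cannot be read as particular to the members.

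Of 11 chaperones 7 were higher and 4 lower with TSA. Of all tested genes 43.6% were higher and 41.6% lower, so calls in both directions were common and a split by itself is not particular to chaperones. Hspa5 was at 15.10, 15.09 and 15.20 with TSA and 14.21, 14.16 and 14.20 with DMSO, and rose by 0.94 ± 0.04 (SE, adjusted p = 1.37e-09). Calr was at 16.03, 16.03 and 16.10 with TSA and 14.67, 14.74 and 14.69 with DMSO, and rose by 1.36 ± 0.05 (SE, adjusted p = 7.33e-11). Hyou1, the exchange factor of Hspa5, rose by 1.16 ± 0.04, and the cochaperone Dnajb9 by 1.19 ± 0.09. Hsp90b1 (-0.47 ± 0.04), Canx (-0.40 ± 0.04), the cochaperone Dnajc3 (-0.41 ± 0.04) and Manf (-0.29 ± 0.04) fell. Calr and Canx, the lectin chaperones, thus moved in opposite directions. Of 6 disulfide enzymes 5 rose, with Pdia3 the exception (-0.50 ± 0.04). Ero1lb had the largest change, with 9.58, 9.52 and 9.52 in TSA cells and 6.26, 6.07 and 6.38 in DMSO cells, and rose by 3.30 ± 0.10 (SE, adjusted p = 2.36e-11).

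Of 7 degradation genes tested with TSA 4 rose and 3 fell. Syvn1 (1.07 ± 0.05), Edem2 (0.94 ± 0.05), the Syvn1 adapter Sel1l (0.70 ± 0.03) and Derl1 (0.14 ± 0.04) were higher, and Derl2 (-0.78 ± 0.04), Edem1 (-0.54 ± 0.04) and Herpud1 (-0.24 ± 0.06) lower. Derl3 was not tested, with a log2 level of 0.99 in 1 TSA library and 0 in the other 5 libraries. Sec61b rose (0.44 ± 0.07). Ssr1, a subunit of the translocon-associated complex, fell by 0.11 ± 0.04 (SE, adjusted p = 0.0328) with overlapping libraries, and was 0.07 in the other direction with quantile normalization. That call also ended with libraries shifted to a common median (adjusted p = 0.161) and without DMSO replicate 1 (0.0726) or 3 (0.0542) or TSA replicate 1 (0.0916) or 2 (0.153). Among other lists, 11 of 34 integrated stress response genes rose and 20 fell with TSA (median -0.47), with the stress factor Atf3 at 5.17, the glutathione-degrading enzyme Chac1 at 2.19 and the glycyl-tRNA synthetase Gars at -1.30. Of 19 cytosolic heat shock genes 7 rose and 11 fell, and the inducible Hspa1b rose by 2.91. In other degradation genes 7 of 22 rose and 13 fell, with the lectin Os9 at 2.16 and the segregase Vcp at -1.08. Of all tested genes 43.6% rose and 41.6% fell. The summed basal markers, given above, were lower with TSA, and the part of that difference in the member values was not tested.

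**Figure D3:**
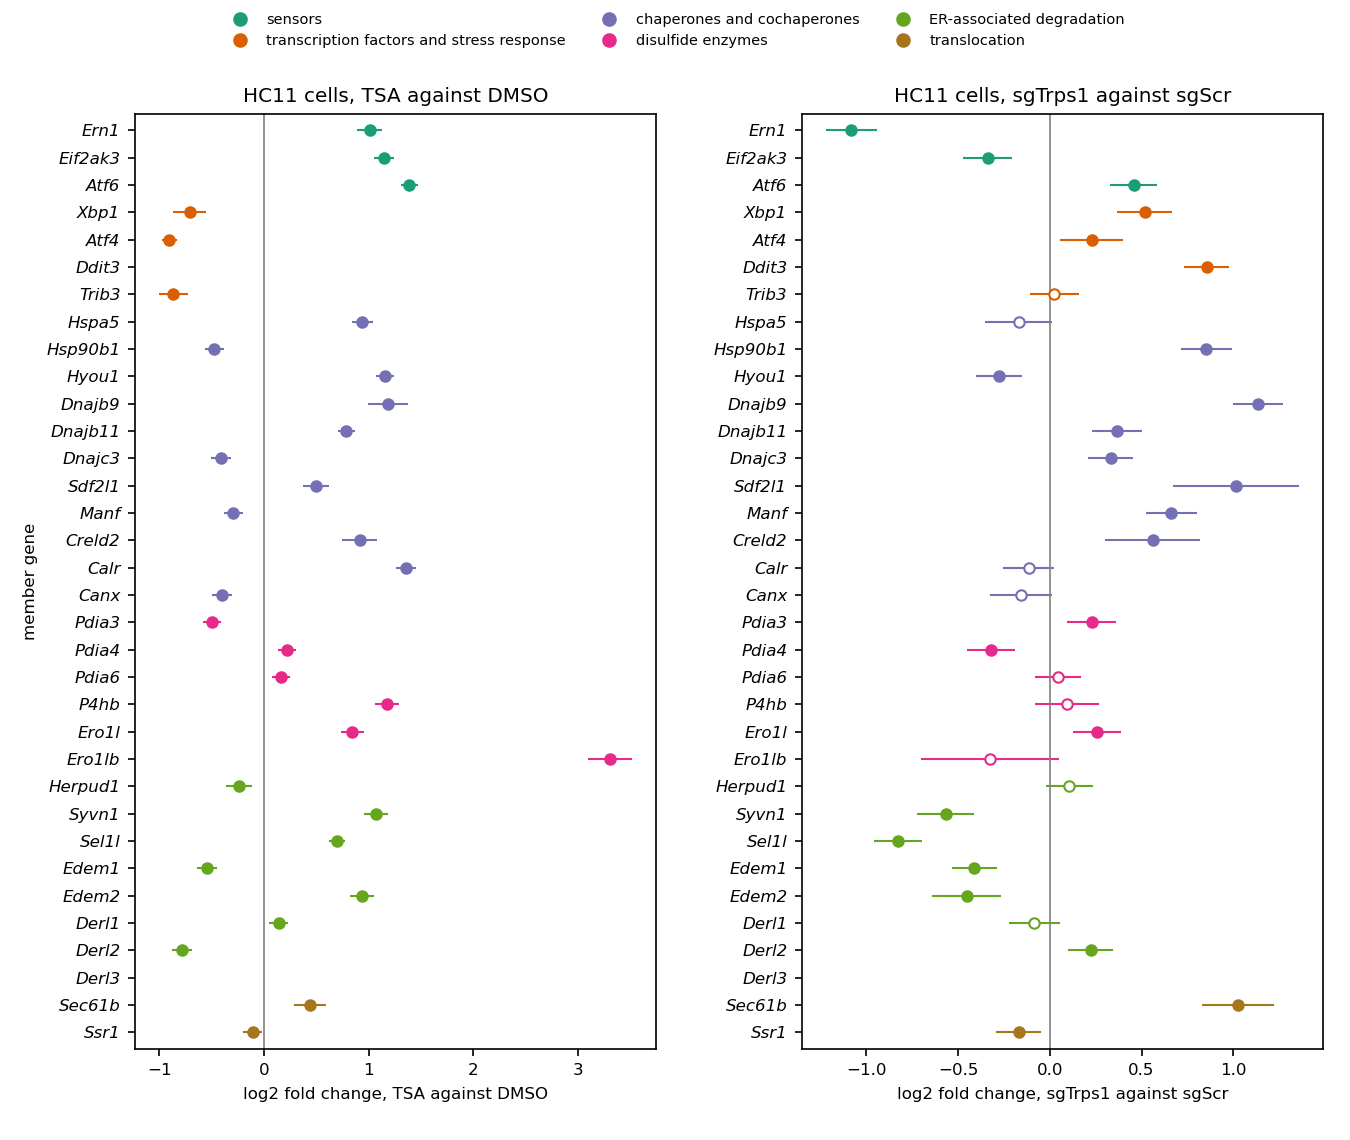
Log2 fold change with its 95% interval for the members tested in HC11 cells, TSA against DMSO and sgTrps1 against sgScr, coloured by role; open points did not pass at an adjusted p under 0.05. With TSA no point is open and Ero1lb stands apart at 3.30; with sgTrps1 9 of 33 points are open and the range is -1.08 (Ern1) to 1.14 (Dnajb9).

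With the guide against Trps1, 15 of 33 members rose and 9 fell, with a median of 0.09, against 34.6% of 12552 tested genes higher and 32.4% lower. Calls were thus common among all genes there as well. The 10 basal markers summed to 100370 to 101800 in sgTrps1 cells and 39902 to 46860 in sgScr cells, and the part of that difference in the member values was not tested. Ern1 had the largest fall, with 10.67 and 10.57 in sgTrps1 cells and 11.63 and 11.78 in sgScr cells (-1.08 ± 0.07, adjusted p = 7.08e-09). Dnajb9 was at 10.37 and 10.44 in sgTrps1 cells and 9.29 and 9.26 in sgScr cells (1.14 ± 0.06, adjusted p = 3.35e-09), and Sec61b at 8.64 and 8.57 in sgTrps1 cells and 7.62 and 7.54 in sgScr cells (1.03 ± 0.09, adjusted p = 2.88e-07). Groups did not overlap for these members, which held for 31 of 33 members. The share of all genes without overlap with the guide is not given here, so this count cannot be read as particular to the members. Of 7 degradation genes tested 4 fell, namely Sel1l (-0.83 ± 0.06), Syvn1 (-0.57 ± 0.07), Edem2 (-0.45 ± 0.09) and Edem1 (-0.41 ± 0.06), and Derl2 rose (0.22 ± 0.06).

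Xbp1 was at 9.71 and 9.62 in sgTrps1 cells and 9.12 and 9.17 in sgScr cells, and rose by 0.52 ± 0.07 (SE, adjusted p = 1.61e-05). Ddit3 was at 11.64 and 11.68 in sgTrps1 cells and 10.84 and 10.78 in sgScr cells, and rose by 0.85 ± 0.06 (SE, adjusted p = 2.2e-08). Atf4 was at 13.90 and 13.91 in sgTrps1 cells and 13.75 and 13.61 in sgScr cells. It rose by 0.23 ± 0.08 (SE, adjusted p = 0.0214), a call that ended with the replicate block (adjusted p = 0.0733), without the filter (0.056) and without either sgTrps1 library (0.151 and 0.191). Hspa5 was at 14.06 and 14.08 in sgTrps1 cells and 14.31 and 14.17 in sgScr cells and did not pass (-0.17 ± 0.09, adjusted p = 0.0938), but was called lower with libraries shifted to a common median (0.0209), with quantile normalization (0.0291), with voom (0.04), with the crossed replicate block (0.032) and without sgScr replicate 2 (0.00158). Trib3 (0.02 ± 0.06, adjusted p = 0.748), Calr (-0.11 ± 0.06, adjusted p = 0.133) and P4hb (0.09 ± 0.08, adjusted p = 0.324) did not pass either.

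Fold changes with the guide differed by chromosome. Genes on chromosome 10 had a median of 0.42 (574 genes) and those on chromosome 16 a median of 0.32 (363 genes), while medians on the other 18 chromosomes ran from -0.16 to 0.09. The 4 members tested there, Ddit3 and Hsp90b1 on chromosome 10 and Dnajb11 and Sdf2l1 on chromosome 16, all rose, with a median of 0.85. Of the 29 members elsewhere 11 rose and 9 fell, with a median of 0.02. The part of the chromosome in these values was not tested. Collagen folding genes fell in 6 of 9 tested and rose in 1, and N-glycosylation genes fell in 11 of 18 and rose in 4. Fibroblast markers fell in 6 of 7 tested, with none higher and a median of -1.15, and their part in these counts was not tested. Among integrated stress response genes 8 of 34 rose and 14 fell, with Atf3 at -1.55 and the stress regulator Nupr1 at 1.81. Of all tested genes 34.6% rose and 32.4% fell with the guide.

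In tumors, no member passed for Trps1F/F against Trps1+/+ mice. Of 33 members 0 rose and 0 fell with limma, with a median of 0.03, against 0% of 15085 tested genes higher and 0% lower. Without adjustment 2 members and 791 genes had a p under 0.05, and voom on the recovered reads called 0 members too. The smallest adjusted p of a member was 0.803. Trib3 had a fold change of 1.75 ± 0.88 (SE, adjusted p = 0.803), Herpud1 of 0.61 ± 0.21 (SE, adjusted p = 0.803), Creld2 of 0.51 ± 0.22 (SE, adjusted p = 0.803), Xbp1 of 0.28 ± 0.29 (SE, adjusted p = 0.826), Atf4 of 0.32 ± 0.21 (SE, adjusted p = 0.803) and Hspa5 of 0.24 ± 0.25 (SE, adjusted p = 0.827). The 95% interval of the difference was -0.32 to 0.80 for Hspa5, -0.38 to 0.94 for Xbp1, -0.16 to 0.80 for Atf4 and -0.25 to 3.74 for Trib3, so large changes in Trib3 lie within it.

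The spread of the members between tumors is given as a description, without the same figure for all genes. Over 9 mice the SD of log2 levels was under 0.5 for 28 of 33 members, with a median of 0.30, and it was 1.87 for Derl3, 1.58 for Trib3 and 1.21 for Ero1l. Hspa5 ranged over 14.08 to 15.15 in the 8 Trps1F/F tumors and 13.98 to 14.63 in the 3 Trps1+/+ tumors, and these ranges overlap. Trib3 ranged over 5.71 to 10.40 in Trps1F/F tumors and 6.60 to 7.24 in Trps1+/+ tumors, and Xbp1 over 11.39 to 12.76 in Trps1F/F tumors and 11.73 to 12.18 in Trps1+/+ tumors. Atf4 ranged over 11.99 to 13.02 in Trps1F/F tumors and 11.90 to 12.06 in Trps1+/+ tumors. Herpud1 ranged over 10.29 to 11.31 in Trps1F/F tumors and 9.76 to 10.45 in Trps1+/+ tumors, and Creld2 over 9.85 to 10.42 in Trps1F/F tumors and 9.15 to 10.14 in Trps1+/+ tumors. Fibroblast markers summed to 126480 to 788677 in Trps1F/F tumors and 557304 to 1520302 in Trps1+/+ tumors, and macrophage markers to 43164 to 237948 in Trps1F/F tumors and 108309 to 149288 in Trps1+/+ tumors. The part of these cells in the member values was not tested.

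The labels number subgroups of the Trps1F/F tumors on a basis that the sources do not state. The subgroups may not be independent of expression, and limma p-values for groups chosen by expression would be too small. The first holds 4 tumors of 3 mice, the second 2 tumors of 2 mice and the third 2 tumors of 2 mice, and mouse 18LCO025 gave tumors to the first and the third. In the first subgroup 2 of 33 members rose and 1 fell, with a median of 0.13, against 8.91% of 15725 tested genes higher and 6.7% lower. With quantile normalization 3 rose and none fell. Trib3 was at 9.46, 10.24, 8.68 and 7.95 in tumors of the first subgroup and 6.997, 6.60 and 7.24 in Trps1+/+ tumors, and every tumor of the first subgroup was above all Trps1+/+ tumors. It rose by 2.39 ± 0.60 (SE, adjusted p = 0.0308) over mice. Derl3 was at 6.32, 7.77, 5.22 and 4.77 in tumors of the first subgroup and 4.53, 2.77 and 2.09 in Trps1+/+ tumors, or 28 to 227 reads in tumors of the first subgroup and 3 to 25 reads in Trps1+/+ tumors, and rose by 3.23 ± 0.84 (SE, adjusted p = 0.0359). Ssr1 was at 12.31, 12.31, 12.40 and 12.24 in the first subgroup and 12.72, 12.89 and 12.90 in Trps1+/+ tumors and fell by 0.52 ± 0.15 (SE, adjusted p = 0.0463).

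These 3 calls rested on single mice. The count was 0 without mouse 17LCO103, 18LCO003, 18LCO114 or 18LCO128 and 1 without 18LCO046, and it was 1 with voom (Ssr1) and 1 without the filter (Trib3). In the first subgroup Xbp1 was at 12.73, 12.47, 12.76 and 12.34, against 12.18, 11.82 and 11.73 in Trps1+/+ tumors, and did not pass (0.67 ± 0.22, adjusted p = 0.0768). Atf4 (0.20 ± 0.21, adjusted p = 0.554) and Hspa5 (0.35 ± 0.28, adjusted p = 0.435) did not pass either. Cdh1 was 12.75 to 13.74 in the 4 tumors of the first subgroup, against 7.02 to 10.64 in Trps1+/+ tumors, and 7 of 15 luminal markers rose there, with a median of 5.44 on the log2 scale. The part of epithelial content in the member values was not tested.

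In the second subgroup no member passed, against 0% of genes higher and 0% lower, and 7 members had an unadjusted p under 0.05. The smallest p-values belonged to Trib3, at 10.40 and 8.40 in tumors of the second subgroup against 6.997, 6.60 and 7.24 in Trps1+/+ tumors (2.45 ± 0.67, adjusted p = 0.216), Ern1, at 12.43 and 11.27 against 10.78, 10.63 and 10.66 in Trps1+/+ tumors (1.16 ± 0.33, adjusted p = 0.232), and Dnajc3, at 11.86 and 11.49 against 12.31, 12.24 and 11.91 in Trps1+/+ tumors (-0.48 ± 0.18, adjusted p = 0.309). In the third subgroup no member passed either, against 0.00636% of genes higher, a single gene, and 0% lower, and 2 members had an unadjusted p under 0.05. The smallest p-values belonged to Pdia4, at 12.12 and 11.90 in tumors of the third subgroup against 12.36, 12.41 and 12.96 in Trps1+/+ tumors (-0.57 ± 0.21, adjusted p = 0.784), Herpud1 (0.67 ± 0.29, adjusted p = 0.823) and P4hb (-0.41 ± 0.19, adjusted p = 0.824). The voom fit called 0 members in both subgroups. In these subgroups 2 mice stood against 3.

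**Figure D4:**
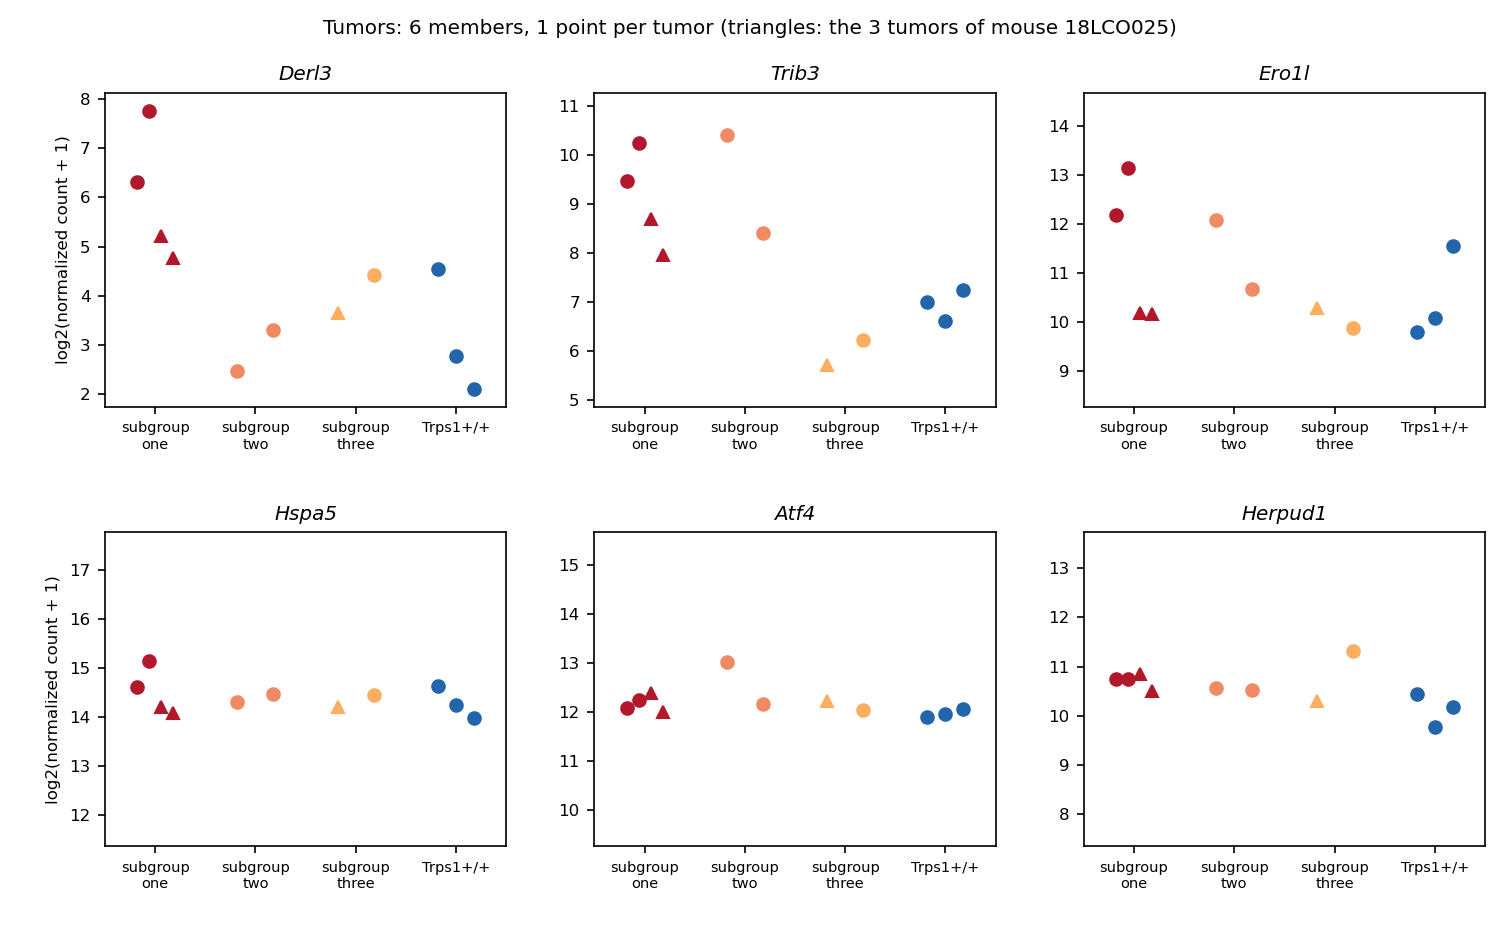
Log2(normalized count + 1) of 6 members in 11 tumors, 1 point per tumor, Trps1F/F subgroups left of Trps1+/+, triangles for the 3 tumors of mouse 18LCO025; every panel spans the same number of log2 units. Trib3 is above 7.9 in all 4 tumors of the first subgroup and under 7.3 in the Trps1+/+ tumors, while Hspa5 lies between 13.98 and 15.15 in all 11.

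Lists of other ER genes were counted in the first subgroup too. Collagen folding had 4 of 12 lower (the scaffold Fkbp10 -1.80), COPII vesicles 7 of 22 lower (Sec24d -1.27), N-glycosylation 4 of 18 lower and other folding enzymes 3 of 21 lower, with none of these higher. Among other regulators 2 of 17 rose, one of them Bhlha15 (4.75), a factor of secretory cells, and 1 of 19 cytosolic heat shock genes rose, with none of either list lower. Of 34 integrated stress response genes 3 rose and 1 fell, with the secreted factor Stc2 at 2.47 and the serine synthesis enzyme Phgdh at -2.81. Of all tested genes 8.91% rose and 6.7% fell in the first subgroup.

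The authors' deposited tables of comparisons were counted at an adjusted p under 0.05. In the authors' deposited table for TSA 20 members were higher and 12 lower, in that for the guide 15 were higher and 11 lower, in those for Cdh1F/F;Trps1F/F against Trps1+/+ organoids 2 higher and 27 lower at day 14 and 16 higher and 2 lower at day 28, and in those for the tumor subgroups 4 higher and 2 lower in the first, 2 higher and 0 lower in the second, and 0 in either direction in the third. The authors' deposited table for the guide is written in the opposite direction and was turned for this count. The share of all genes under that threshold in the authors' comparisons is not given here, so these counts cannot be read as particular to the members.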

How the data were processed

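RNA was sequenced after TruSeq library preparation from total RNA, per the labels' protocols. Per the submitters' processing notes, TopHat, HTSeq and the GRCm38 build were used, and their versions, and whether reads were counted by strand, are not stated. The authors deposited gene tables of log2 normalized counts (pseudocount 1), and tables of comparisons with log2 fold changes and adjusted p-values, named where used. Values were tested per table with limma 3.58.1 in R 4.3.3 (linear models, intensity trend, moderated), on the deposited log2 scale, which understates changes of low genes. Genes with a normalized count plus 1 of at least 10 in as many libraries as the smallest group were kept. P-values were adjusted by Benjamini-Hochberg over all kept genes, and calls were made under 0.05. The 6 organoid groups shared 1 model, and tumors were averaged per mouse. Library reads were recovered as whole numbers (tolerance 0.01) and used for the voom alternative. Replicates differed beyond sampling noise (chi-square per degree of freedom 1.51 to 493), so none were merged. Same-numbered TSA and DMSO libraries did not deviate together (correlations -0.10 to -0.01), so numbers were not used as pairs.

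The members and lists were chosen with earlier results of these data known. Library values are given, per comparison, for the 3 called members with the largest change, the 3 with the smallest p, and Hspa5, Xbp1, Atf4 and Ddit3, and for each other list up to 4 genes with the smallest p. Other members named were chosen after their values were seen. Alternatives were median and quantile scaling, pseudocount 10, no filter, voom, fits of the compared groups alone, every tumor as a sample, replicate blocks, and leaving out each library or mouse. The fitting step was tested on simulated data. Python 3.11.15 with pandas 2.3.3 and matplotlib 3.10.9 made summaries and figures.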

Additional observations from a re-analysis of the deposited data

Results flagged for a closer look

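Among the 6 mice with Trps1F/F tumors, 1 mouse stood apart from the rest for 5 of 33 members by a gap test on log2 levels. Chance alone sets apart about 1 in 20 such groups. The share of all genes that the gap test sets apart is not given here, so the count cannot be read as particular to the members. Atf6, a sensor, was 11.92 in mouse 18LCO003, against 11.07 to 11.32 in the other mice. Atf4 was 13.02 in mouse 17LCO102, against 12.05 to 12.25. Mouse 18LCO052 stood apart for 3 members, with Dnajb9 at 9.035, against 10.04 to 10.5, Derl2 at 9.4, against 10.24 to 10.46, and Herpud1 at 11.31, against 10.53 to 10.75.

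The genotype difference between Cdh1F/F;Trps1F/F and Trps1+/+ organoids differed between day 28 and day 14 for 25 members, by the test of that difference in limma. As day 28 minus day 14 differences on the log2 scale, the positive ones were Ero1l 1.79, Hsp90b1 1.70, Hspa5 1.57, Manf 1.32, Pdia4 1.28, Sdf2l1 1.24, Pdia3 1.17, Calr 1.14, Dnajb11 1.05, Pdia6 1.04, Canx 1.02, Creld2 0.98, Ero1lb 0.98, Dnajc3 0.96, Hyou1 0.93, Sel1l 0.88, Edem1 0.73, Ssr1 0.69, Dnajb9 0.68, Ddit3 0.63, P4hb 0.59, Derl2 0.58, Atf6 0.58 and Derl1 0.55. The negative one was Eif2ak3 -0.46. The Ddit3 call ended without Cdh1F/F;Trps1F/F day 14 replicate 1. The Eif2ak3 call ended without Trps1+/+ day 14 replicate a or day 28 replicate b, and on leaving out either Cdh1F/F;Trps1F/F day 14 library or replicate 1 of day 28. Derl1, Dnajb9 and Ero1lb each lost the call without Trps1+/+ day 14 replicate a and without others.

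The difference between Cdh1F/F and Cdh1+/F Trps1F/F organoids also differed between days, for 11 members, all negative. These were Derl3 -1.97, Ddit3 -1.19, Hsp90b1 -0.51, Eif2ak3 -0.49, Hspa5 -0.47, Ero1l -0.46, Derl1 -0.45, Herpud1 -0.45, Manf -0.40, Pdia6 -0.39 and Xbp1 -0.38. Leaving out single libraries gave 3 to 8 calls.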

How the results depend on the processing

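Over 333 member results and 3611 alternative values, 3309 kept their direction and side of the threshold, 271 lost and 7 gained the call, 23 that had not passed changed sign, and 1 reversed. That was Ssr1 with TSA, at 0.069 with quantile normalization. These 333 results were the called members and the uncalled members named by the rule for library values. Other uncalled members were left out, so calls gained among them are not in the 7. With the guide, for example, 24 members were called in the main fit and 27 with quantile normalization. Of 189 alternative counts of called members, 174 lay within 1.5 times the reported count. The 3 calls in the first tumor subgroup fell to 1 with no filter and 1 with voom on recovered reads, and to 0 to 2 when single mice were left out. Leaving out single libraries gave 9 to 14 calls, against 16, for Cdh1F/F against Cdh1+/F Trps1F/F organoids at day 14, and 3 to 8, against 11, for the day by Cdh1 difference. The causes were not tested. Elsewhere such ranges were 31 to 32 for TSA, 20 to 27 for the guide, 25 to 28 and 24 to 27 for Cdh1F/F and Cdh1+/F at day 14 and 20 to 25 for the day by Trps1 difference.

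With a replicate block 32 members were called for TSA (20 higher, 12 lower), 23 for the guide (14 higher, 9 lower) and 21 for day 28 against day 14 in Cdh1F/F;Trps1F/F organoids (1 higher, 20 lower), where same-numbered libraries had a correlation of -0.04. Same-numbered guide libraries deviated in opposite directions (correlation -0.21), and the crossed replicate block, added after seeing the data, called 26. No paired analysis was possible because, in the other organoid groups, both columns of a group carry the same replicate number, and tumors of the groups compared come from different mice. Shifting libraries to a common median moved the median of all genes by over 0.1 in the second subgroup of tumors alone (0.129). Leaving out a mouse or library leaves some groups with 1 sample, which is then assumed to vary like the others. Depth limits Derl3, under 10 reads in some tumors, and 2 libraries a group limit all organoid results.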
